A study of Homo sapiens with 4 samples.

Results

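The control libraries of 2 colorectal cancer cell lines, LIM1215 and HT29, were compared gene by gene to describe how the lines differed before any knockdown. The genes compared were the 12251 protein-coding genes whose FPKM, averaged over the 2 control libraries, was at least 1, out of 19580 protein-coding genes and 60658 gene identifiers in all. FPKM is the number of sequenced fragments corrected for transcript length and library depth. For each gene the log2 ratio of LIM1215 over HT29 was taken after adding 1 to each FPKM, and the ratios were centred on their median, so that 0 stands for the typical gene. The averages closest to the threshold were 1.002 FPKM inside and 0.997 FPKM outside, and 3320 of the 7329 protein-coding genes left out were listed at 0 in both libraries.

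The study knocked down TMEM161A, a gene for a transmembrane protein, with a small interfering RNA (siRNA) in HT29 and in LIM1215 cells. Each line gave 1 library from cells with a negative control siRNA and 1 from cells with the siRNA against TMEM161A, 4 libraries in all. The ratio of the lines in the TMEM161A siRNA libraries shares no library with the ratio in the control libraries, and it served as a second look at each direction, in cells that also carried the knockdown. Both lines are established human lines, grown as cultures of cancer cells, and every group had 1 library. No value therefore carries an error between replicates and no p-value was computed. A gene is called higher or lower in LIM1215 when its centred ratio passed 2-fold, a log2 ratio of 1.

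The lining of the colon is made of absorptive cells with a brush border, mucus-making goblet cells and rare hormone-making cells, all renewed from stem cells that Wnt signalling maintains. Transcription factors such as CDX1, CDX2 and HNF4A keep the intestinal programme on, and colorectal tumours retain it to different degrees. HT29 is known as a line with mutated APC and BRAF that secretes carcinoembryonic antigen and can form enterocyte-like and mucus-making cells. LIM1215 is known as a mismatch repair-deficient line with a mutated CTNNB1.

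By estimate, 18.1 to 21.54 fragments per kilobase lay behind each FPKM unit. Per library 23397 to 23935 genes had a value above 0, and mitochondrial genes held 13.9% to 16.4% of the summed FPKM. The targeted gene, TMEM161A, stood at 42.6 FPKM in the HT29 control, 39.1 in the LIM1215 control, 4.64 in the HT29 TMEM161A siRNA and 7.61 in the LIM1215 TMEM161A siRNA library, lower in both libraries labelled with its siRNA. Most markers of other cell types were low, with the leukocyte list's CD68 and the fibroblast list's COL1A1 as the highest. Of 9 fibroblast markers 7 stayed under 1 FPKM in every library and LUM was listed at 0 throughout. Of 7 endothelial markers 6 stayed under 1 FPKM, and of 11 leukocyte markers 8 did, with PTPRC, CD3D, CD3E, MS4A1 and TYROBP at 0 in all 4.

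The colon epithelium markers went against the HT29 label. All 16 of these markers passed the filter on low values, and 15 were higher in the LIM1215-labelled control library. In the HT29-labelled control library CDX1, CEACAM5 (the carcinoembryonic antigen itself) and CEACAM6 were listed at 0, while VIL1, the brush border protein villin, stood at 0.0397 FPKM and GPA33, another gut surface antigen, at 0.02 FPKM. CEACAM5 was also at 0 in the HT29-labelled TMEM161A siRNA library, against 84.3 and 87.1 FPKM in the LIM1215-labelled libraries. Genes of epithelia in general were high in the same library, with KRT8 at 1467 FPKM, KRT18 at 736, KRT19 at 712 and EPCAM at 168. What the missing colon markers stem from was not tested, and all results below hold for the libraries as labelled.

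Of the 12251 genes, 1308 were higher in the LIM1215-labelled control library (10.7%) and 937 were lower (7.65%). In the TMEM161A siRNA libraries 1430 of the same genes were higher (11.7%) and 1009 lower (8.24%). Both pairs together gave 1119 genes higher (9.13%) and 672 lower (5.49%). Thus 85.6% of the genes higher in the control pair and 71.7% of those lower passed 2-fold again, and 24 of the 2245 genes called in the control pair had the opposite sign in the TMEM161A siRNA pair. Both LIM1215-labelled libraries lay above both HT29-labelled ones for 36.2% of all genes and below them for 29.2%. Over all 12251 genes the difference between lines exceeded the difference between siRNAs in 5664 (46.2%). Across genes, which are not independent replicates, the ratios of the 2 pairs had a Pearson correlation of 0.927 and a Spearman correlation of 0.848. A 95% counting interval of the ratio (exact Clopper-Pearson on estimated fragments) was computed for the called genes only. It left out the median ratio of all genes for 1307 of the genes higher and all 937 lower. These genes were chosen by the same ratio, so that outcome was largely set by the choice. The interval covers no variation between cultures.

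**Figure D1:**
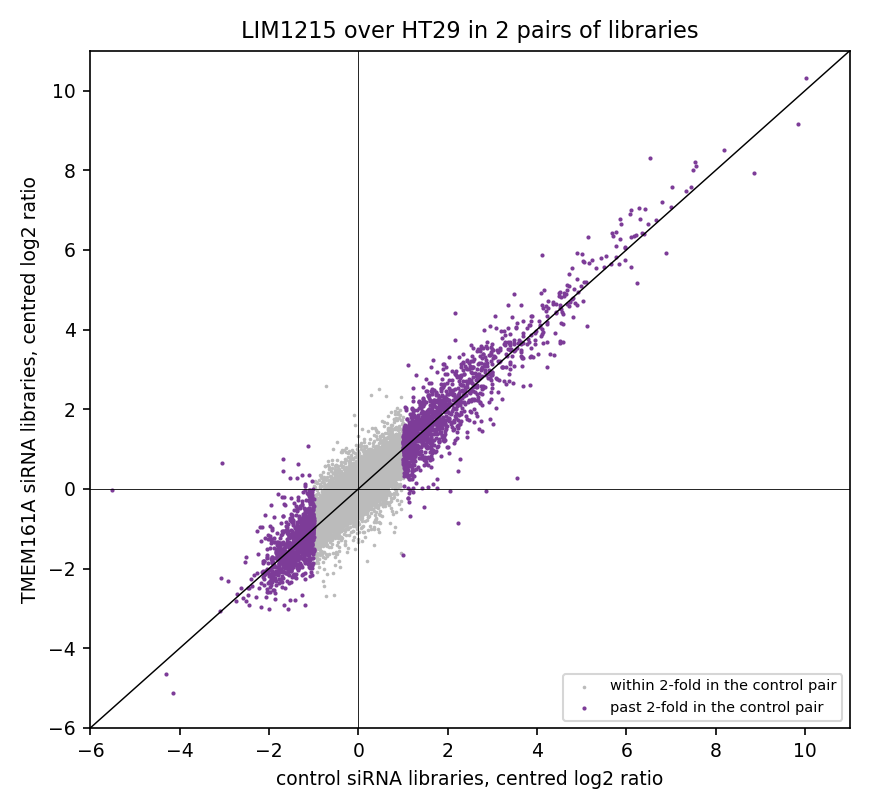
Centred log2 ratio of LIM1215-labelled over HT29-labelled libraries in the control siRNA pair (x axis) and in the TMEM161A siRNA pair (y axis), 1 point per gene, with the genes past 2-fold in the control pair in purple and the line of equality in black; 6 genes of chromosome Y are not drawn. The points follow the line, with a correlation of 0.927, and the upper right arm reaches past 10 while the lower left arm holds few points past -4.

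The differences were not of equal size in both directions. Past 4-fold, 499 genes were higher and 64 lower in the LIM1215-labelled control library, and at a log2 ratio of 4 the counts were 124 and 3. Under 0.1 FPKM in the HT29-labelled control library and at least 2 FPKM in the LIM1215-labelled one were 245 genes (2%), against 7 in the reverse direction (0.0571%). These genes passed the filter on low values through 1 library alone. Of the 245 genes, 175 were listed at exactly 0, 215 were again under 0.1 FPKM in the HT29-labelled TMEM161A siRNA library, and 56 reached 20 FPKM in the LIM1215-labelled control. The 7 reverse genes were LRRTM4, TNFRSF9, TNFSF4, SYS1-DBNDD2 and 3 without a symbol, and 2 of them held in both pairs.

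The same imbalance appeared when each line was read from its own abundant genes, with thresholds chosen after the values were seen. Of 5619 genes with at least 20 FPKM in the LIM1215-labelled control, 82 had under 1% of that level in the HT29-labelled control, 149 under 10% and 226 under 20%. Of 5274 genes with at least 20 FPKM in the HT29-labelled control, 1 had under 1% of its level in the LIM1215-labelled control, 2 under 10% and 13 under 20%. In the TMEM161A siRNA libraries, 172 of 5660 and 4 of 5319 were under 10%. Among genes of at least 100 FPKM, the lowest LIM1215-labelled value was 15.4% of the HT29-labelled one in the control pair and 12.9% in the siRNA pair, whereas in the other direction genes listed at 0 occurred. Genes abundant in the HT29-labelled libraries were thus nearly all present in the LIM1215-labelled ones at 10% of that level or above. In the control pair ADGRF1 and 1 short gene without a symbol were below this. The short gene overlaps ERBB3 and PA2G4. It read 43.3 FPKM in the HT29-labelled control and was listed at 0 in the HT29-labelled siRNA library as well, so its value is uncertain. The cause of the imbalance was not tested.

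**Figure D2:**
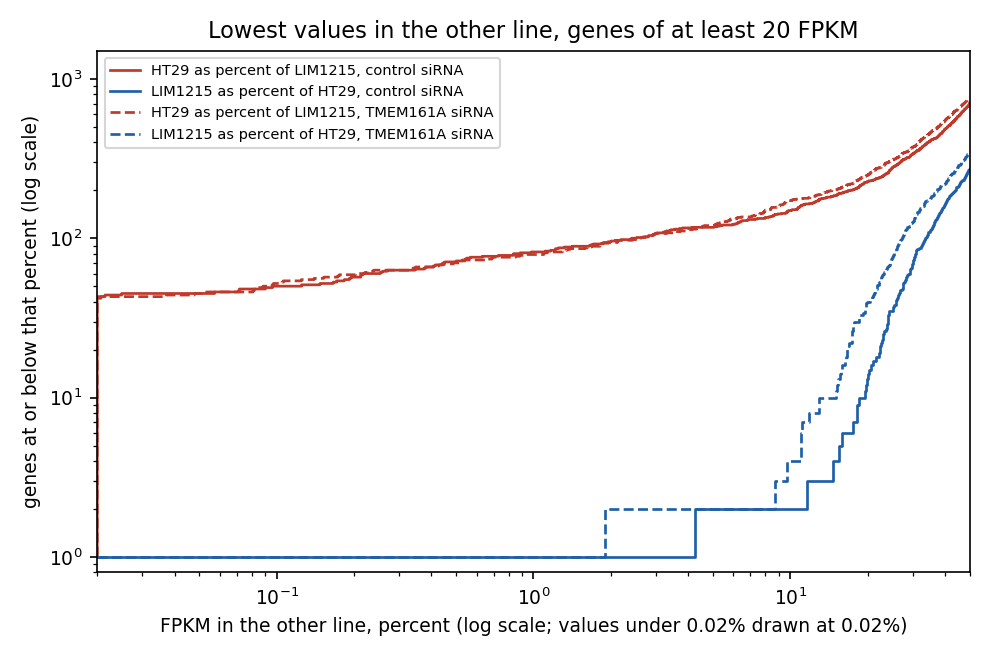
Number of genes (y axis, log scale) at or below a given percentage of their level in the other line (x axis, log scale, values under 0.02% drawn at 0.02%), for genes of at least 20 FPKM in the line named second in the legend, chromosome Y left out; solid lines are control siRNA and dashed lines TMEM161A siRNA libraries. The red curves, for HT29-labelled levels, pass 82 and 79 genes at 1%, while the blue curves, for LIM1215-labelled levels, hold 2 to 4 genes under 10%.

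The genes furthest apart were ranked by the smaller of the ratios in the 2 pairs. The 15 highest in LIM1215 were PHGR1, AGR2, MUC13, S100P, LGALS4, PLA2G2A, VIL1, EPS8L3, GPX2, CDC42EP5, CDH17, C15orf48, NEFL, IGFL2 and GPA33. PHGR1, a small protein of the gut lining (GRCh38, chromosome 15, 40351033 to 40356434, plus strand), had the largest ratio, with 0.127 and 1225 FPKM in the HT29- and LIM1215-labelled controls and 0 and 1311 in the siRNA libraries. AGR2, a disulfide isomerase needed for mucin folding, was at 0 in both HT29-labelled libraries and at 954 and 585 FPKM in the LIM1215-labelled ones. LGALS4, the gut galectin-4, read 0.607 and 0.417 FPKM against 316 and 398. Chosen by their ratios, these 15 genes were all below 2 FPKM in both HT29-labelled libraries and above 80 FPKM in both LIM1215-labelled ones.

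Lower in LIM1215 were, by the same rule, LRRTM4, ADGRF1, PDE4B, CSTA, DUSP5, BEX2, OLFM2, ARHGAP29, CRABP2, GPAT2, RBP7, TNFAIP2, ALPK2, ARTN and NR2F1. LRRTM4, a neuronal adhesion protein (chromosome 2, 76747685 to 77593319, minus strand), read 18.2 FPKM in the HT29-labelled control and 23.4 in the HT29-labelled siRNA library and was listed at 0 in both LIM1215-labelled libraries. ADGRF1, an adhesion G protein-coupled receptor, read 60.02 and 95.2 FPKM against 2.56 and 1.81, with ratios of -4.16 and -5.13. The nuclear receptor NR2F1 read 152 and 235 FPKM against 31.4 and 36.0, and CRABP2, which binds retinoic acid inside cells, 271 and 159.7 against 49.96 and 28.3. The ranking asked for large ratios in both pairs, so the gap between the lines in these 15 genes follows largely from the choice. Of the 15 genes, 14 kept a value above 0 in the LIM1215-labelled libraries.

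**Figure D3:**
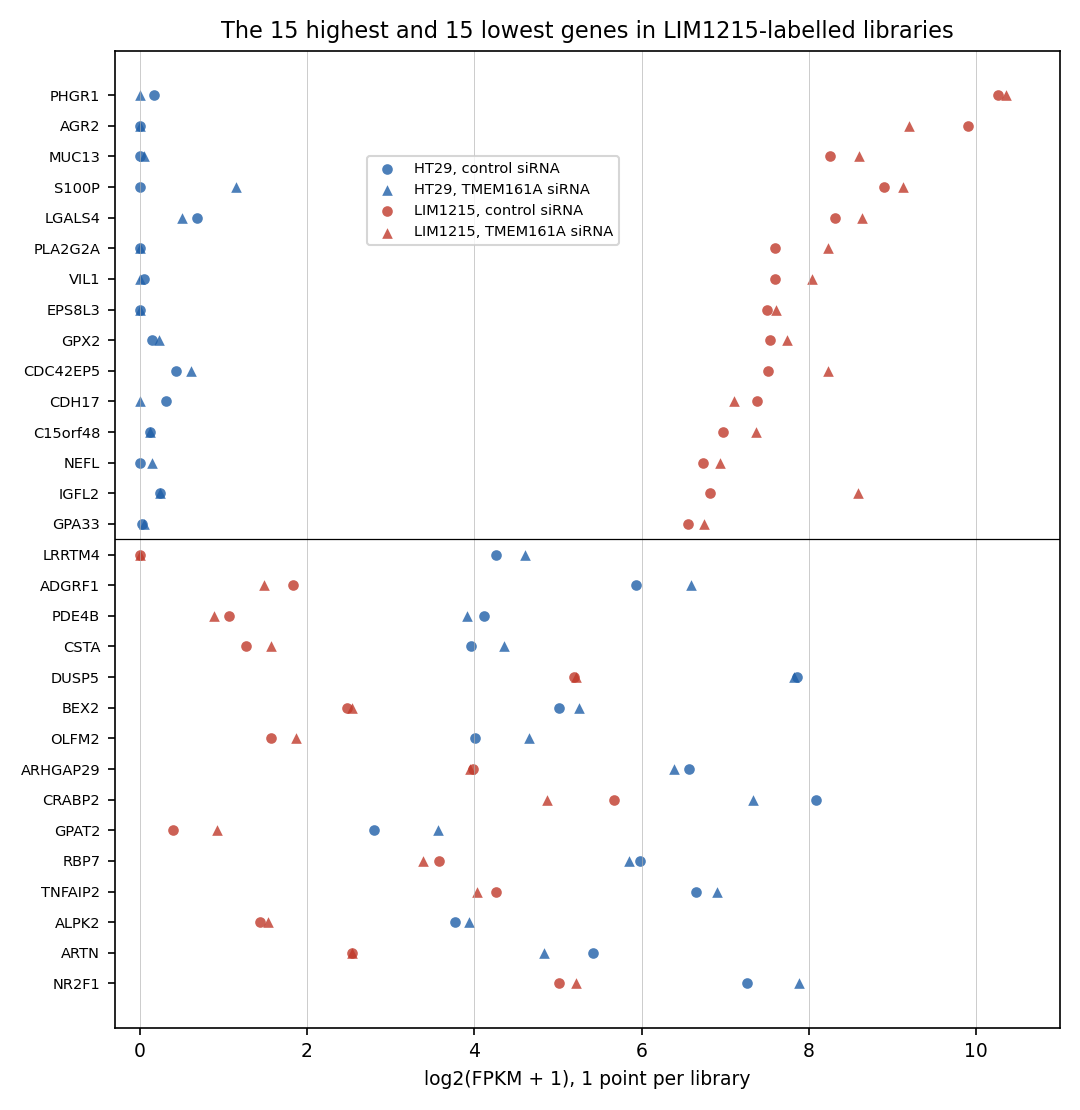
FPKM on a log2(FPKM + 1) scale for the 15 genes highest and the 15 lowest in LIM1215-labelled libraries, 1 point per library, circles for control and triangles for TMEM161A siRNA, blue for HT29 and red for LIM1215. In the upper rows all blue points lie near 0, and in the lower rows the red points lie to the left of the blue ones but, LRRTM4 apart, above 0.

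The promoters of 2 genes high in LIM1215 and 2 high in HT29 are shown as examples. They were chosen for their difference in CpG content, so that difference follows from the choice and is no result. The sequences are those of RefSeq on GRCh38.p14, from 250 bases before to 50 after the start of the gene, 5′ to 3′ on the gene's strand, with each CpG in capitals.
AGR2 promoter, chr7:16804950-16805249, minus strand: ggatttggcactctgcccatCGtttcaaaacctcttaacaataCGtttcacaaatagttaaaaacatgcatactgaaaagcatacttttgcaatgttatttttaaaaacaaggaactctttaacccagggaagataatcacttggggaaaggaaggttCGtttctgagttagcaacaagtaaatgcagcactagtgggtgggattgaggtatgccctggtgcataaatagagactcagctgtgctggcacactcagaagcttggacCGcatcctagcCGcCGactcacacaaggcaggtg
LGALS4 promoter, chr19:38812896-38813195, minus strand: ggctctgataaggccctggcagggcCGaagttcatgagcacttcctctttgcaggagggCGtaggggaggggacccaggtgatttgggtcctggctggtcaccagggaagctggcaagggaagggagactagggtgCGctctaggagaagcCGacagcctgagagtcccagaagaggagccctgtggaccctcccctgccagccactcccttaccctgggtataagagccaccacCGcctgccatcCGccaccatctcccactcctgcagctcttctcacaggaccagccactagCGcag
ARHGAP29 promoter, chr1:94247697-94247996, minus strand: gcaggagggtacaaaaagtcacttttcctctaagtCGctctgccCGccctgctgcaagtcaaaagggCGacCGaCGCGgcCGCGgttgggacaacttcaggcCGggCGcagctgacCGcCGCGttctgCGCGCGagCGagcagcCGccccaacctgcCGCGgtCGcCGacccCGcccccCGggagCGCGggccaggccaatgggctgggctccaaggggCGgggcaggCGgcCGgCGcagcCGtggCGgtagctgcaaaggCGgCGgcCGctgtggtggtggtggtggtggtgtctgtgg
CRABP2 promoter, chr1:156705735-156706034, minus strand: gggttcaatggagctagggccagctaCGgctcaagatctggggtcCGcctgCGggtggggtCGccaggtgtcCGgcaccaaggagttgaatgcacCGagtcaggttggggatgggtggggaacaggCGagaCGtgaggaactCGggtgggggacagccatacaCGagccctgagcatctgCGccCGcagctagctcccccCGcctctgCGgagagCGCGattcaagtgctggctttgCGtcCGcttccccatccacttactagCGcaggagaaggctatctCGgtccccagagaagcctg

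In these examples the ratio of observed to expected CpG was 0.420 for AGR2, 0.238 for LGALS4, 0.908 for ARHGAP29 and 0.658 for CRABP2. Of the 15 genes highest in LIM1215, 9 had a promoter in the RefSeq table, with ratios from 0 to 0.420. Of the 15 lowest, 12 had one, with ratios from 0.114 to 0.908, of which 8 were above 0.6. ADGRF1, GPAT2, ALPK2 and ARTN were below it. Over all genes compared, 83.7% of the 9914 promoters found had a ratio above 0.6, as had 63.2% of 870 for genes higher and 72.2% of 504 for genes lower in both pairs. For the genes under 0.1 FPKM in the HT29-labelled control the share was 41.8% of 182 promoters, beside 48.9% of all 27305 promoters in the table. The last group and the 15 genes highest in LIM1215 passed the filter on low values through the LIM1215-labelled library alone. Their CpG values therefore describe that selection and are no comparison with the other genes or with the 15 lowest.

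Short motifs were searched on both strands of the same promoters. ATCAAAG, a TCF-type sequence, was in 1.38% of the promoters of genes higher in both pairs and 0.794% of those lower, beside 1.34% of all genes compared and 2.64% of all promoters in the table. TTTATGG or TTTATTG, as CDX factors bind, was in 5.06% and 2.98%, beside 3.43% and 6.57%. TGANTCA, the AP-1 sequence, was in 6.09% and 5.56%, beside 4.35% and 7.76%. CCGGAAG, an ETS-type sequence, was in 8.28% and 6.55%, beside 19.8% and 10.7%. These shares were not tested. CCGGAAG holds a CpG, and how far its share depends on the CpG content of the promoters was not tested either. Genes lower in both pairs had more promoters above a CpG ratio of 0.6 than genes higher (72.2% against 63.2%) but fewer with CCGGAAG. A match is only a run of letters in this window.

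**Figure D4:**
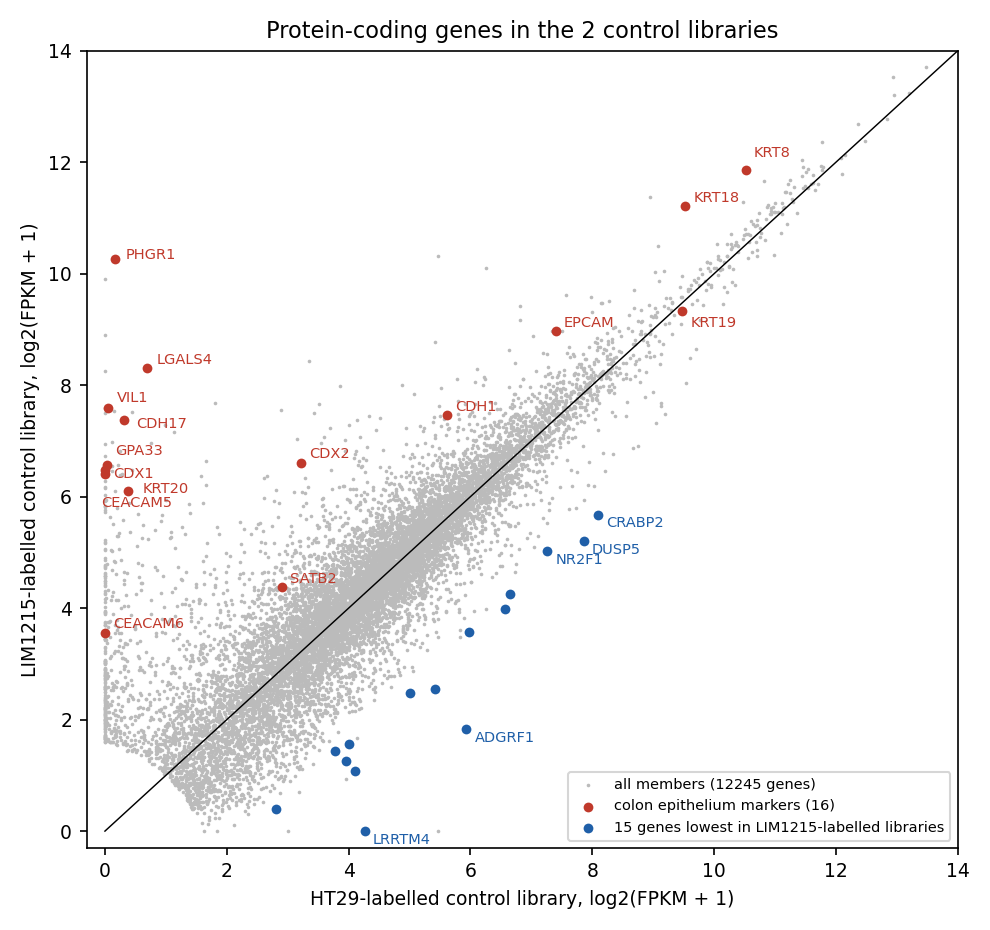
log2(FPKM + 1) in the HT29-labelled control library (x axis) against the LIM1215-labelled control library (y axis), 1 point per gene, with the 16 colon epithelium markers in red, the 15 genes lowest in LIM1215 in blue and the line of equality in black; 6 genes of chromosome Y are not drawn. CDX1, CEACAM5 and CEACAM6 lie on the left edge, at 0 FPKM in the HT29-labelled control, and KRT19, with a log2 ratio of -0.20, lies near the line while KRT8 and KRT18 lie above it, at 1.28 and 1.62.

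The counts of each gene list, here and below, are to be read beside the shares over all genes. These were 10.7% higher and 7.65% lower in the control pair, and 9.13% and 5.49% in both pairs. Some list genes were under 0.1 FPKM in the HT29-labelled control and at least 2 in the LIM1215-labelled one. Such genes passed the filter through 1 library alone and could only be called higher in the control pair. They made up 8 of 26 Wnt targets, 7 of 20 goblet and secretory genes and 5 of 16 colon epithelium markers. No list had such a gene in the reverse direction. Of 38 transcription factors of the intestine, 22 were higher and 3 lower in the control pair, with 17 and 3 in both pairs. Their median log2 ratio was 1.13 beside 0 over all genes. HNF4A, a master regulator of gut and liver epithelium, read 0.0948 and 0.0886 FPKM in the HT29-labelled control and siRNA libraries against 44.7 and 51.2 in the LIM1215-labelled ones. CDX2, which specifies hindgut epithelium, was present in the HT29-labelled libraries at 8.29 and 8.04 FPKM and stood at 96.8 and 150.1 in the LIM1215-labelled ones. Its relative CDX1 (chromosome 5, 150166778 to 150184558, plus strand) was at 0 in both HT29-labelled libraries and at 88.4 and 132 FPKM in the others. The lines did not overlap for any of the 3, as for 36.2% of all genes in this direction. MYB, which drives progenitor growth, was also higher in both pairs, while IRX4, HHEX and SIX4 were lower.

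Of the 16 general colon epithelium markers, KRT19 alone was not called, at 712 and 898 FPKM in the HT29-labelled control and siRNA libraries and 647 and 795 in the LIM1215-labelled ones. The cadherin CDH17 read 0.243 and 0 FPKM against 165 and 137, and the keratin of mature colon cells KRT20 read 0.306 and 0.815 against 67.8 and 92.2. E-cadherin, CDH1, read 48.0 and 41.6 FPKM against 176 and 182, and EPCAM 168 and 154 against 503 and 533. The median log2 ratio of the 16 markers was 4.58 in the control and 4.84 in the siRNA pair, and 7.02 in the control pair with a pseudocount of 0.1.

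Of the goblet and secretory genes more were higher than lower in LIM1215; fewer cells of a kind and less RNA per cell cannot be told apart in such libraries. Of 20 compared, 13 were higher in both pairs and 0 were lower in both, with a median of 1.85 in the control pair, which was 0.86 without the filter and 2.95 at a mean of at least 5 FPKM; 14 further genes of the list stayed under 1 FPKM in all libraries. The trefoil factor TFF3, which protects mucus, was at 0 in both HT29-labelled libraries and at 52.96 and 83.1 FPKM in the LIM1215-labelled ones. The membrane mucin MUC13 read 0 and 0.0346 FPKM against 304 and 386, and REG4, a marker of deep crypt secretory cells, 0.0357 and 0 against 19.1 and 17.8. GFI1, a factor of secretory cell fate, was the 1 lower gene of the control pair, at 3.97 against 1.26 FPKM, and at 3.61 against 2.11 it was not past 2-fold in the siRNA pair. Of 8 gastric and foregut genes, 3 were higher in both pairs, SERPINB5, MUC5AC and MUC6, and TRNP1 was lower, at 39.8 and 52.996 FPKM against 19.4 and 13.8. MUC5AC and MUC6 were not past 2-fold with a pseudocount of 5, and the list's median of 0.57 became -0.61 at a mean of at least 5 FPKM.

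Brush border and absorptive genes divided less cleanly. Of 22 compared, 11 were higher and 2 lower in the control pair, 10 and 1 in both. The median of 1.44 rested on the filter: it was 0.22 without the filter and 2.61 at a mean of at least 5 FPKM, and 0.77 with a pseudocount of 5. FABP1, a fatty acid binding protein of enterocytes, was at 0 in both HT29-labelled libraries and at 122 and 61.1 FPKM in the LIM1215-labelled ones. The brush border myosin MYO1A read 0.175 and 0.453 FPKM against 39.7 and 53.2, and the brush border scaffold USH1C 8.46 and 7.92 against 67.2 and 93.7. EZR, the membrane linker ezrin, went the other way, with 776 and 937 FPKM against 359 and 356. Genes listed at 0 in the HT29-labelled control made up part of all 3 lineage lists, so their ratios depend on the pseudocount. Of 7 enteroendocrine and neural genes, 4 were lower in both pairs (SCG2, TUBB3, ENO2 and NCAM1) and SCG5 was higher. The list's median was -1.06 in the control pair, -0.53 with a pseudocount of 5 and -0.33 without the filter. A further 18 genes of this list stayed under 1 FPKM in all libraries.

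Of 26 targets of the Wnt pathway, 15 were higher and 2 lower in both pairs, and 9 were not called in the control pair, among them MYC at 215 against 217 FPKM. Of the 26, 8 were under 0.1 FPKM in the HT29-labelled control and passed the filter through the LIM1215-labelled control alone, so their direction in that pair was set by the filter. The median of the list was 1.22, and 0.78 with a pseudocount of 5. AXIN2, a feedback inhibitor often read as the Wnt output, stood at 5.82 and 4.55 FPKM in the HT29-labelled libraries and 59.5 and 62.9 in the LIM1215-labelled ones. The stem cell genes ASCL2 and LGR5 read 0 and 0.0191 FPKM in the HT29-labelled control against 32.3 and 26.7 in the LIM1215-labelled control; LGR5 overlaps TSPAN8 in the genome. The lower targets were DKK1, a secreted inhibitor, at 231 and 293 FPKM against 60.7 and 72.4, and SOX4 at 30.2 and 63.2 against 11.4 and 16.3. Of 42 components, 6 were higher and 6 lower in the control pair with a median of 0.11. WNT11, LGR4, FZD10 and FZD5 led the higher ones and WNT16, ROR2, TLE2 and TCF7L2 the lower ones, TCF7L2, the main TCF factor of the colon, with 85.3 and 117 FPKM against 35.8 and 45.9.

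**Figure D5:**
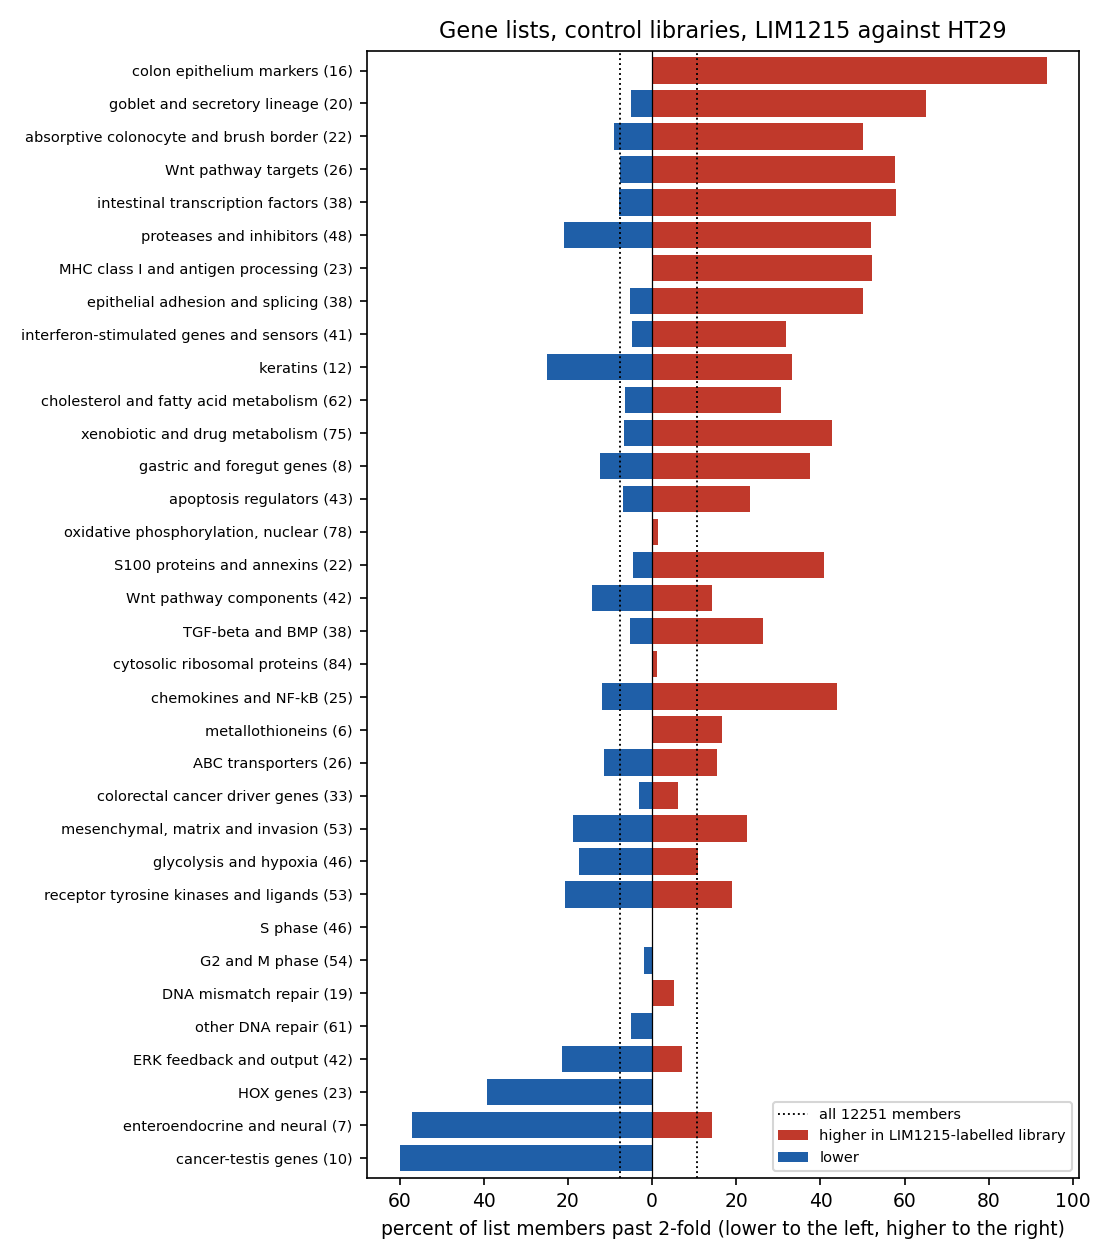
Percent of the members of each gene list past 2-fold in the control pair, higher in LIM1215 to the right in red and lower to the left in blue, with the number of list members in parentheses and the shares over all 12251 genes as dotted lines; lists with under 5 members and 1 list not reported here are left out. Colon epithelium markers reach 93.8% higher, cancer-testis genes 60% lower, and the S phase list has no gene past 2-fold.

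Of 38 genes of epithelial adhesion and splicing, 19 were higher and 2 lower in the control pair, 15 and 2 in both, with a median of 0.97. The tight junction genes CLDN1 and CLDN3 read 0.0143 and 18.3 FPKM in the HT29-labelled control against 9.78 and 85.5 in the LIM1215-labelled one. ESRP1, a splicing factor of epithelia, was lower, with 63.6 and 29.3 FPKM against 21.2 and 11.2.

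Mesenchymal, matrix and invasion genes were divided in direction. Of 53 genes, 12 were higher and 10 lower in the control pair, 9 and 9 in both, with a median of -0.10. Higher were the matrix protein TGFBI, COL4A2, the tropomyosin TPM1 and COL17A1, with TPM1 at 16.7 and 13.7 FPKM against 165 and 175.5. Lower were TPM2 at 243 and 239 FPKM against 72.9 and 49.7, the caveolar protein CAV1 at 325 and 496 against 107 and 127, TIMP2 and the lysyl oxidase LOXL2. VIM, the intermediate filament of mesenchymal cells, was low in all 4 libraries, at 3.25 and 3.46 FPKM against 3.12 and 2.58. Of the fibroblast markers COL1A1 alone reached the filter, at 17.6 and 15.95 FPKM against 4.83 and 8.56, and the summed FPKM of the 9 markers ran from 16.6 to 18.7 in the HT29-labelled and from 7.53 to 9.998 in the LIM1215-labelled libraries. Its part in these values was not tested.

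Keratins and S100 proteins varied by gene. Of 12 keratins, 4 were higher in both pairs (KRT20, KRT81, KRT18 and KRT8) and 2 lower (KRT23 and KRT15). Of 22 S100 proteins and annexins, 7 were higher in both pairs and 1 lower. S100P, a calcium-binding protein often raised in carcinomas, read 0 and 1.23 FPKM against 478 and 557, and S100A4 read 467 and 840.4 against 219.8 and 272.

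Of 23 genes of MHC class I and antigen processing, 12 were higher and 0 lower in both pairs, and 11 were not called in the control pair. The median was 1.08 in the control and 1.52 in the siRNA pair, and 0.62 with a pseudocount of 5. The shared light chain B2M read 540.3 and 460.0 FPKM in the HT29-labelled libraries against 1444 and 1391 in the LIM1215-labelled ones. The class I transactivator NLRC5 read 5.87 and 4.32 FPKM against 35.2 and 47.6. The lines did not overlap in either gene, as for 36.2% of all genes in this direction. Heavy chain genes are polymorphic, so read assignment among their copies is uncertain. The immunoproteasome subunit PSMB8, at 0.367 and 0.553 FPKM against 88.6 and 106, overlaps PSMB9 in the annotation. Of 3 MHC class II genes HLA-DMB was lower in both pairs, and HLA-DRB1 was higher in the control pair alone, at 0.960 against 3.70 FPKM, with 1.23 against 2.11 in the siRNA pair.

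Interferon-stimulated genes differed among themselves. Of 41 genes, 13 were higher and 2 lower in the control pair, 11 and 1 in both, with a median of 0.72, or 0.42 with a pseudocount of 5. The antiviral membrane protein IFITM1 read 9.23 and 5.85 FPKM against 346 and 369, IFI27 10.4 and 17.3 against 202 and 268, and OAS1 2.14 and 3.55 against 73.1 and 57.7. MX1 was higher as well and overlaps TMPRSS2. ISG20 was lower in both pairs, and other core members did not pass 2-fold, among them ISG15 at 136 and 163 FPKM against 86.3 and 88.0. Of 11 leukocyte markers CD68 was the 1 above the filter, at 6.22 and 9.82 FPKM against 58.1 and 72.2. The summed FPKM of the 11 markers ran from 8.20 to 11.4 in the HT29-labelled and from 59.9 to 74.7 in the LIM1215-labelled libraries, with PTPRC at 0, and its part in these values was not tested.

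Chemokine and NF-kB genes split by gene. Of 25 genes, 11 were higher and 3 lower in the control pair, 10 and 2 in both, with a median of 0.09. PI3, IL32, the neutrophil chemokine CXCL3 and the adhesion molecule ICAM1 led the higher ones, and CXCL3 read 5.12 and 4.10 FPKM against 80.1 and 43.6. CCL20, a chemokine for CCR6-bearing cells, was far apart only in the control pair, with 0.943 against 22.8 FPKM, while the siRNA libraries read 1.59 and 2.19. TNFAIP2 and NFKB2 were lower, TNFAIP2 with 99.6 and 119 FPKM against 18.1 and 15.3.

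Among receptor tyrosine kinases and ligands as many genes were lower as higher. Of 53 genes, 10 were higher and 11 lower in the control pair, 8 and 9 in both. ERBB3, the partner receptor of HER2, read 16.9 and 18.1 FPKM against 98.9 and 115, and EPHB2, which positions crypt cells, 7.71 and 8.78 against 32.1 and 49.7. The EGFR ligand EREG read 196 and 142 FPKM against 53.8 and 36.6, and the EGFR inhibitor ERRFI1 405 and 460.0 against 116 and 121. EGFR itself overlapped between the lines, at 16.5 and 27.5 FPKM against 20.8 and 23.9. Of 42 genes of ERK feedback and output, 3 were higher and 9 lower, 1 and 7 in both pairs, with a median of -0.34. DUSP5, a nuclear ERK phosphatase, read 231 and 226 FPKM against 35.7 and 36.1, and ETV1, PHLDA1 and ETV5 were also lower, while DUSP10 was higher.

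Of 38 TGF-beta and BMP genes, 9 were higher and 2 lower in both pairs, beside 9.13% and 5.49% of all genes. The median was 0.09 in the control pair, and -0.02 after rescaling to a common sum. BAMBI, a decoy receptor, read 1.12 and 2.1 FPKM against 37.7 and 39.2, and BMP7 4.58 and 4.96 against 42.1 and 40.8. SMAD3, the intracellular TGF-beta effector, read 61.97 and 95.8 FPKM against 25.01 and 29.3.

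HOX genes encode position along the body axis. Of 23 compared, 0 were higher and 9 lower in the control pair, 7 of them in both, with medians of -0.88 and -0.84. The control median was -0.37 with a pseudocount of 5, -0.44 at a mean of at least 5 FPKM and -0.28 without the filter; 13 more stayed under 1 FPKM in all libraries. HOXA9 read 87.7 and 109 FPKM against 30.0 and 29.9, and HOXA6, HOXB4 and HOXD8 were lower too. HOXB9 stood on the other side without passing 2-fold, at 18.5 and 22.5 FPKM against 36.2 and 43.9. Of 10 cancer-testis genes, normally silent outside the germ line, 6 were lower and 0 higher in both pairs, with a median of -1.16, which was -0.31 without the filter, and 61 more of the list stayed under 1 FPKM everywhere. MAGEB2 read 106 and 101.1 FPKM against 26.8 and 21.9, and MAGEA3 36.8 and 48.3 against 13.6 and 15.6; close copies of this family make single values uncertain.

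Of 75 detoxifying and drug-metabolising enzymes, 32 were higher and 5 lower in the control pair, 27 and 4 in both, with a median of 0.64, or 0.36 with a pseudocount of 5. GPX2, the gut glutathione peroxidase, read 0.106 and 0.176 FPKM against 185 and 212. The epoxygenase CYP2J2 read 0.684 and 0.682 FPKM against 124 and 140.1, and CBR1, a carbonyl reductase that acts on anthracyclines, was at 0 in both HT29-labelled libraries and at 64.1 and 67.1 in the others. ALDH1A3, which makes retinoic acid, was lower, at 431 and 586 FPKM against 119.6 and 102. Of 26 ABC transporters 4 were higher in both pairs (ABCC6, CFTR, ABCB10 and ABCC3) and 2 lower (ABCC2 and ABCB6). In the control pair 15.4% were higher and 11.5% lower, beside 10.7% and 7.65% of all genes, with a median of 0.01. ABCC2, an apical conjugate exporter, read 55.6 and 48.5 FPKM against 20.7 and 18.4.

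Lipid genes were higher in 19 of 62 cases in both pairs and lower in 2, with a median of 0.65. ACAA2, the last enzyme of mitochondrial beta-oxidation, read 13.5 and 7.89 FPKM against 253 and 272, and the fatty acid desaturase FADS2 11.1 and 10.4 against 133 and 130.4. MOGAT2, an enzyme of fat resynthesis in enterocytes, was at 0 in both HT29-labelled libraries and at 6.39 and 7.71 FPKM in the others. CPT1C and ELOVL6 were lower. Of 46 glycolysis and hypoxia genes 5 were higher and 6 lower in both pairs, and the higher share in the control pair, 10.9%, is near the 10.7% of all genes. TXNIP, which restrains glucose uptake, was at 0 in both HT29-labelled libraries and at 17.0 and 59.4 FPKM in the others, while the lactate exporter SLC16A3 read 246 and 266 against 97.1 and 84.4.

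Of 48 proteases and inhibitors, 22 were higher and 6 lower in both pairs, with a median of 1.08, which was 0.21 without the filter. The membrane protease TMPRSS2 was at 0 in both HT29-labelled libraries and at 55.3 and 57.3 FPKM in the LIM1215-labelled ones, and the leukocyte protease inhibitor SLPI read 1.19 and 1.53 against 143 and 139. CSTA, an inhibitor of cathepsins, and KLK8 were lower, KLK8 with 56.1 and 61.9 FPKM against 11.2 and 13.9. Of 43 apoptosis regulators, 9 were higher and 3 lower in both pairs. In the control pair 23.3% were higher and 6.98% lower, beside 10.7% and 7.65% of all genes. The median was 0.24 in the control and 0.08 in the siRNA pair. RIPK3, the kinase of necroptosis, was at 0 in both HT29-labelled libraries and at 3.33 and 4.58 FPKM in the others, and the BH3-only protein PMAIP1 read 94.2 and 79.5 against 34.3 and 28.1.

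Growth and housekeeping lists had few genes past 2-fold, though several leaned slightly to 1 side. Below 0 in the control pair were 32 of 46 S phase, 41 of 54 G2 and M phase and 43 of 61 other DNA repair genes. Above 0 were 62 of 78 nuclear genes of oxidative phosphorylation, with a median of 0.23, or 0.10 after rescaling to a common sum. Of 46 S phase genes 0 were called in either direction in the control pair, and of 54 G2 and M phase genes 1 was lower, the kinase TTK at 15.1 against 6.82 FPKM. Of 84 cytosolic ribosomal proteins 1 was called, RPL39L, at 0 in both HT29-labelled libraries and at 8.76 and 7.54 FPKM in the others, and the list's median was 0.09. Of 78 nuclear genes of oxidative phosphorylation 1 was called, of 6 metallothioneins MT1G was higher, and of 61 other DNA repair genes 3 were lower, none of them in both pairs. Metallothioneins apart, these shares lie below the 10.7% and 7.65% of all genes.

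The cell cycle inhibitor CDKN1A read 190 and 414 FPKM against 206 and 518, and the ubiquitin ligase MDM2 98.8 and 126 against 88.1 and 143. The lines overlapped in both genes, and neither was called.

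Of 19 mismatch repair genes MSH3 alone was called, at 0.664 and 0.739 FPKM against 3.77 and 3.22; it overlaps another gene in the annotation. Of 33 colorectal cancer driver genes AXIN2 and B2M were higher and TCF7L2 lower, in both pairs, and the median was -0.05. Among the others APC read 12.2 and 11.7 FPKM against 10.3 and 11.6, BRAF 10.1 and 12.7 against 5.93 and 6.13, and CTNNB1 100.2 and 76.3 against 153 and 134. Transcript levels do not show mutations, and none was looked for.

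By chromosome, the median ratio was lowest on chromosome 8 at -0.17 (410 genes) and chromosome 17 at -0.16 (754 genes), and highest on chromosome 9 (498 genes) and chromosome 7 (577 genes), both at 0.08. The siRNA pair gave -0.16, -0.19, 0.14 and 0.09. No chromosome median came near 2-fold.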

How the data were processed

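RNA from 4 cultures, 2 cell lines with 1 control and 1 TMEM161A siRNA library each, was sequenced from a stranded mRNA kit, per the labels' protocols. The authors deposited 1 FPKM value per gene and library. HISAT2 2.1.0, SAMtools 1.20, Cufflinks 2.2.1, Cuffdiff and GRCh38 are named in the submitters' processing notes; the annotation, filters, strand setting and handling of shared reads are not given in the sources used here. An FPKM of 0 can be a failed estimate, and overlapping genes cannot be told apart; 63 of the 213 genes named by rule overlap another gene.

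Files were joined by Ensembl identifier, and symbols, types and positions came from GENCODE 44 (56550 of 60658 identifiers matched). Ratios used a pseudocount of 1 FPKM, a mean of at least 1 FPKM over the 2 control libraries and centring, which removed 0.06 in the control and 0.03 in the siRNA pair (log2). This scale understates the difference of low genes. Fragments were estimated from the steps of low FPKM values in transcripts of at least 500 bases: 77.7% to 79.9% lay within 0.03 of a whole fragment. In a transcript of 2 kb, 3 fragments make 0.0775 to 0.0921 FPKM. Python 3.11.15, numpy 2.4.6, pandas 2.3.3 and scipy 1.17.1 were used, and the ratios were tested on simulated data.

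The rule for naming took the driver genes, TMEM161A, CDKN1A and MDM2, and the 15 highest and 15 lowest genes by the smaller ratio of the pairs. It added up to 4 genes per direction in each of 39 lists, defining members not called, and members of counts of 5 or fewer. Not every gene under this rule is named in the text. Other named list members were chosen after their values were seen. Members and lists were chosen with earlier results of these data known. Genes of chromosome Y are not reported singly, and some genes and 1 list are not reported here. The alternatives are given with the sensitivity of the results.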

Additional observations from a re-analysis of the deposited data

Results flagged for a closer look

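Among the list members called in the control pair, 2 genes of low FPKM had a ratio of opposite sign in the TMEM161A siRNA pair; with 1 library per group the difference was not tested. ACACB, a mitochondrial acetyl-CoA carboxylase, read 4.61 FPKM in the HT29-labelled and 1.66 in the LIM1215-labelled control library, and 1.11 and 3.52 in the TMEM161A siRNA libraries. Its log2 ratio of LIM1215 over HT29 was -1.13 in the control and 1.07 in the siRNA pair, a difference of -2.2. SERPINA3, a secreted protease inhibitor, read 3.45 and 0.435 FPKM in the controls and 0.375 and 0.921 in the siRNA libraries. Its ratios were -1.69 and 0.45, a difference of -2.14.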

How the results depend on the processing

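Every group had 1 library, so no replicate could be left out. The groups share no replicate number, and no fit with the siRNA as a block was made. With 1308 genes higher and 937 lower, 58.3% of the genes called were higher. This share was 55.1% with a pseudocount of 0.1, 62.4% without the filter on low values, 63.1% without centring, 55% with upper quartile scaling and 50.4% as TPM (1183 and 1165 genes), which moved the median of all genes by -0.11. With a pseudocount of 5 there were 784 and 327 genes (70.6% higher), with a mean of at least 5 FPKM 902 and 573 (61.2%), at 1.5-fold 2381 and 2111 (53%) and at 4-fold 499 and 64 (88.6%). All 12 alternatives kept more genes higher than lower. The median of the fibroblast markers was -1.73 from 1 gene and 0.1 without the filter, which admits more of its genes. Of the 39 lists 27 kept the sign of their median in every alternative that gave a value; the endothelial markers had none at a mean of 5 FPKM. Of 2518 values of 213 single genes, 2397 stayed on the same side of the threshold and 0 reversed. Most of these genes were named for passing 2-fold in the same direction in both pairs. That 211 were unchanged in the siRNA pair follows largely from this choice. Dropping the filter or taking all biotypes changes only the centring of a gene's ratio. A pseudocount of 5 ended 33 calls. Depth limits genes near 0: about 3 fragments separate presence from absence, and differences between cultures of a line cannot be seen.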

Other observations

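Several genes outside the lists were near 0 in the HT29-labelled libraries and abundant in the others; they were chosen after their values were seen. CCND2, the D-type cyclin often silent in epithelia, read 0.0150 and 0 FPKM in the HT29-labelled control and siRNA libraries against 60.04 and 111 in the LIM1215-labelled ones, while CCND1 read 313 and 433 against 376 and 528. BCAT1, which starts the breakdown of branched-chain amino acids, was at 0 in both HT29-labelled libraries and at 55.8 and 69.5 FPKM in the others. The tetraspanin TSPAN8, which overlaps LGR5, read 0.0844 and 0 FPKM against 93.2 and 85.0.

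In bins of 10 Mb with at least 20 genes, a size chosen after the values were seen, some neighbours differed together. The bins given were picked from both ends of the ranking by median, and others nearly as far out are not listed. On chromosome 17 the median log2 ratio was -0.54 in the control and -0.59 in the siRNA pair from 60 to 70 Mb (50 genes), and -0.45 and -0.52 from 50 to 60 Mb. On chromosome 1 it was 0.54 and 0.56 from 230 to 240 Mb (34 genes) and 0.46 and 0.62 from 220 to 230 Mb (60 genes). On chromosome 7 it was 0.53 in both pairs from 40 to 50 Mb (33 genes) and 0.46 and 0.53 from 30 to 40 Mb (29 genes). From 20 to 30 Mb of the same chromosome it was -0.39 and -0.42 (42 genes). On chromosome 10 it was -0.45 and -0.40 from 100 to 110 Mb (64 genes).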
